A study of Mus musculus with 9 samples.

Results

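Ovaries of mice that had received transplanted spermatogonial stem cells (SSCTR) were compared with ovaries of wild type controls (WT) by their messenger RNA. The comparison used 4 Illumina arrays, replicates 2 and 3 of each group, out of 9 columns for 9 samples in 3 groups. The third group, a premature ovarian failure model (POF), was not compared. Its replicates 2 and 3 entered the normalization, the choice of each gene's probe and the estimate of the spread between arrays. The replicate 1 columns were computed from replicates 2 and 3 and were left out. Probes detected at p under 0.05 on 2 or more of these 4 arrays were included, 17470 of 45281, which gave 12663 features, of which 10248 were named genes and 2415 were probes without a single symbol. Both groups were C57BL/6 ovaries. WT were labelled as wild type controls with no treatment named, and the transplant was the one treatment that the labels named for SSCTR. The labels gave neither the age, the donor, the time since transplant nor the earlier state of the recipients' ovaries, and did not say whether replicates came from separate animals, so the p-values measure the spread between these arrays alone.

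Spermatogonial stem cells are the self-renewing germ cells of the testis. A normal ovary holds oocytes enclosed in follicles, whose granulosa cells nourish the oocyte, whose theca cells make androgens, and which turn into progesterone-making corpora lutea after ovulation. Blood vessels, stroma and resident immune cells fill the space between follicles. A whole-ovary array therefore measures a mixture, in which fewer cells of a type and less RNA per cell cannot be told apart.

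The labelled tissue was checked against its defining markers. Probes for the granulosa genes Foxl2, Inha and Fshr, the oocyte genes Gdf9 and Zp3, the theca gene Cyp17a1 and the steroidogenic gene Star were detected on all 4 arrays. The probe for Amh, a hormone of growing follicles' granulosa cells, was detected on 0 of 4 arrays. Arrays of a group correlated at 0.988 (WT) and 0.987 (SSCTR) over the 12663 features, and arrays of different groups at 0.974 to 0.977. Fewer probes were detected on the SSCTR arrays (16546 and 16040) than on the WT arrays (17752 and 18019), with no overlap between the groups.

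Levels are given as log2 intensity after background correction, and a difference is SSCTR minus WT in log2 units with the standard error of the fit after the sign ±. A gene was called changed where limma's p, adjusted by Benjamini-Hochberg over all 12663 features, was under 0.05. By that rule 497 features changed, or 3.92% of those tested, of which 267 rose (2.11%) and 230 fell (1.82%). Named genes made up 377 of them, 210 higher and 167 lower, and the other 120 were probes without a single symbol. At least 2-fold changes numbered 132 higher and 100 lower among named genes, and at least 4-fold changes 17 higher and 6 lower. The 2 groups did not overlap for any of the 377 named genes, against 49.3% of all features tested, 23.2% higher and 26.1% lower in SSCTR. The median difference over all features was -0.0078, with quartiles of -0.23 and 0.205. The smallest difference that passed was 0.71 in size.

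The count rests on 2 arrays a group and fell with each array left out. Without WT replicate 2 it was 106 named genes, without WT replicate 3 it was 115, without SSCTR replicate 2 it was 124 and without SSCTR replicate 3 it was 115. Of the 377 genes, 73 passed in every one of these 4 fits, 45 higher and 28 lower, and all 377 kept their sign. The kept signs are no test, because the groups of all 377 genes did not overlap and leaving out an array could hardly turn them. Genes that passed in all 4 of these fits are called stable below. Each had an adjusted p of 0.00617 or less by limma in the main fit. The label therefore largely restates a stricter threshold and is not separate support. Each of these fits also leaves 1 array in a group, so its spread comes from the other groups, POF among them.

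**Figure D1:**
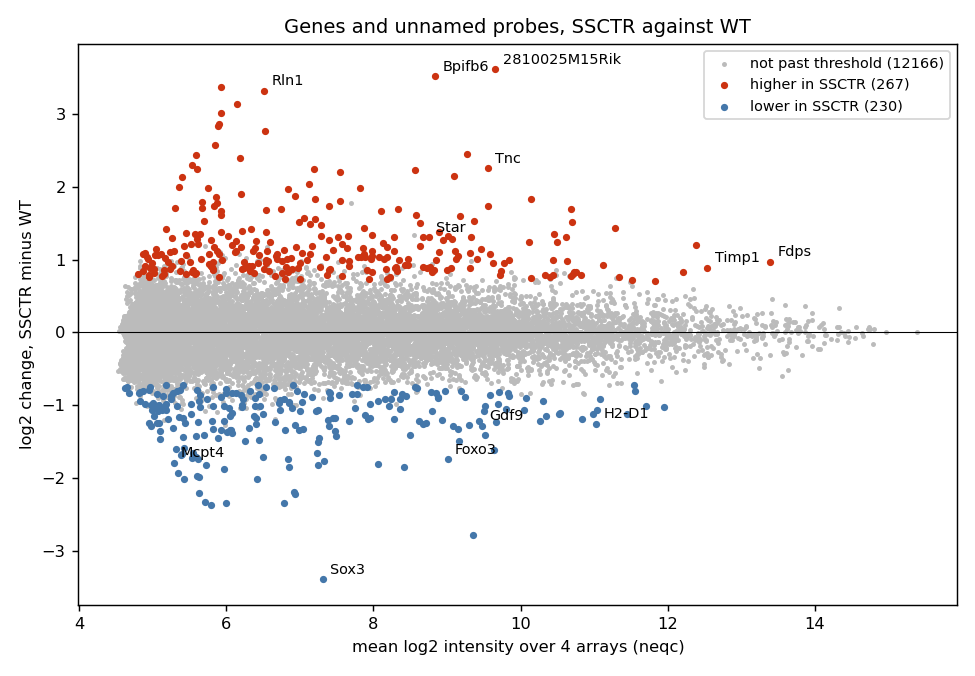
Mean log2 intensity of the 4 arrays (horizontal) against the SSCTR minus WT difference in log2 units (vertical) for each feature tested; coloured points are those past the adjusted p of 0.05. The 267 features that rose and the 230 that fell lie on both sides of a cloud centred near a difference of 0.

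The largest rises were in genes of varied roles. The uncharacterised gene 2810025M15Rik measured 8.002 and 7.69 in WT and 11.58 and 11.35 in SSCTR. Both SSCTR arrays were far above both WT arrays, a difference of 3.62 ± 0.18 or 12.3-fold (adjusted p = 0.000148). Bpifb6, of the lipid-binding BPI fold family, measured 6.91 and 7.25 in WT and 10.71 and 10.50 in SSCTR, 11.5-fold higher in SSCTR (3.52 ± 0.21, adjusted p = 0.000205). Rln1, the hormone relaxin, which the corpus luteum of rodents makes, stood at 4.87 and 4.83 in WT and 8.35 and 8.01 in SSCTR. Its WT values lay near the lowest detected intensity and its SSCTR values well above it, 10-fold higher (3.33 ± 0.18, adjusted p = 0.000186).

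Where a probe was not detected on either WT array, the rise has only a lower bound, set against the lowest detected signal of those arrays or the probe's own, whichever was higher. Nat8, an acetyltransferase of the endoplasmic reticulum, was at least 7.95-fold higher (adjusted p = 0.000407), with 4.70 and 4.45 in WT and 7.98 and 7.46 in SSCTR. Olfml2b, a secreted olfactomedin-domain protein, was at least 6.57-fold higher (4.30 and 4.55 in WT and 7.44 and 7.45 in SSCTR, adjusted p = 0.000205). Both genes thus went from undetected on the WT arrays to clear signals on both SSCTR arrays. On the probe used, Megf10, a receptor for the engulfment of dying cells, was at least 7.44-fold higher and Tnfrsf9, a costimulatory receptor of T cells, at least 5.97-fold. A second probe of Megf10 gave a difference of 1.54 and one of Tnfrsf9 1.29, so the direction was shared and the size was not. Myom2, which crosslinks thick filaments in striated muscle, was at least 3.98-fold higher.

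Bace2, an aspartyl protease, measured 7.94 and 8.16 in WT and 10.53 and 10.48 in SSCTR, 5.5-fold higher, with a lower bound of 1.12 in log2 units on a second probe, which was detected on neither WT array. Tnc, the matrix glycoprotein tenascin-C, measured 8.52 and 8.34 in WT and 10.66 and 10.71 in SSCTR, 4.78-fold higher (2.26 ± 0.17, adjusted p = 0.000641); other probes gave differences of 2.13, 0.72 and 0.52, and one that was detected on neither WT array a lower bound of 0.63. Srxn1, which restores oxidised peroxiredoxins, measured 7.28 and 7.63 in WT and 9.74 and 9.64 in SSCTR, 4.7-fold higher. For each of these 3 genes the SSCTR arrays sat close together and above both WT arrays, the latter a condition of their choice. The rise was 4.75-fold for Efna5, an ephrin ligand (second probe 0.72), and 4.43-fold for Zbtb8b, a zinc finger protein. Of the 15 largest rises, 14 were stable; Efna5 did not pass without WT replicate 2. Egr3 and Cst9, the remaining members of the 15, are described with their gene groups.

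Sox3, an X-linked transcription factor of neural progenitors and undifferentiated spermatogonia, had the largest fall. It measured 8.94 and 9.09 in WT and 5.64 and 5.59 in SSCTR. Both WT arrays were bright and both SSCTR arrays far dimmer but still detected, 10.5-fold lower (-3.40 ± 0.16, adjusted p = 0.000148). Serpina3n, a secreted protease inhibitor of the acute phase, measured 7.88 and 8.05 in WT and 5.08 and 6.15 in SSCTR, 5.09-fold lower. Fbxo2, which targets glycoproteins for degradation, measured 7.39 and 6.96 in WT and 4.62 and 5.04 in SSCTR, 5.07-fold lower, with detection on 1 of 2 SSCTR arrays. Xpnpep2, a membrane aminopeptidase, was 4.59-fold lower (8.07 and 7.97 in WT and 5.86 and 5.78 in SSCTR). The SSCTR arrays of Serpina3n stood further apart than those of the other genes here and were both below WT.

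Foxo3, the transcription factor that holds primordial follicles of mice dormant, measured 9.88 and 9.88 in WT and 8.05 and 8.22 in SSCTR. The WT arrays were alike and both SSCTR arrays lower, 3.35-fold (-1.75 ± 0.18, adjusted p = 0.00202). Acvr2a, a receptor of activins, measured 7.51 and 7.34 in WT and 5.35 and 5.47 in SSCTR, 4.03-fold lower (-2.01 ± 0.17, adjusted p = 0.000768). Igfbp2, which binds insulin-like growth factors, measured 8.85 and 9.08 in WT and 7.48 and 6.84 in SSCTR, 3.51-fold lower, and its second probe gave -1.67. Porcn, the acyltransferase that lets Wnt proteins be secreted, measured 8.34 and 8.11 in WT and 6.59 and 6.31 in SSCTR, 3.42-fold lower. Both SSCTR arrays lay below both WT arrays in each of these genes, as their choice required.

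The remaining large falls were Zfyve16, an endosomal adaptor (3.54-fold), Lgi3, a secreted leucine-rich protein (3.68-fold), Adh7, a retinol-oxidising alcohol dehydrogenase (at least 3.01-fold), Ugt1a6b, a glucuronosyltransferase (3.35-fold, detected on 1 of 2 SSCTR arrays), and the mast cell genes Cma2, Cma1 and Mcpt4, described below. Ugt1a transcripts share exons, so Ugt1a6b and Ugt1a6a (at least 2.94-fold lower) may not be separate measurements. All 15 of the largest falls were stable.

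**Figure D2:**
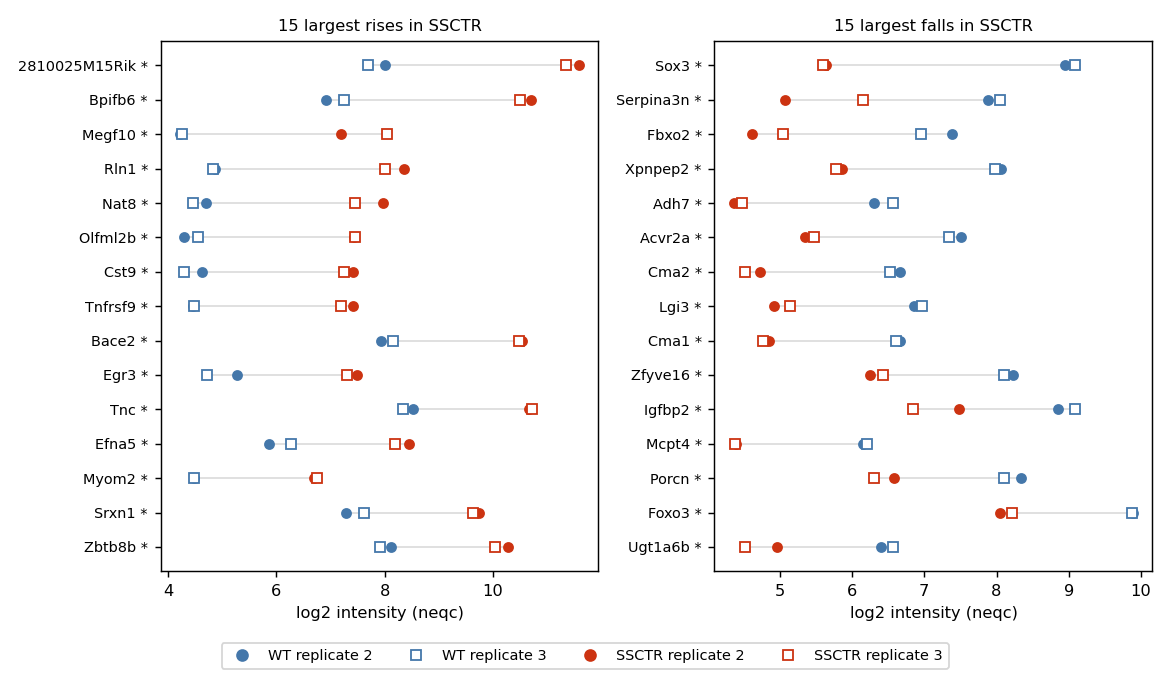
Log2 intensity (horizontal) of the 15 named genes with the largest rises (left) and the 15 with the largest falls (right) on each of the 4 arrays; blue is WT, red is SSCTR, filled circles are replicate 2 and open squares replicate 3. In every gene both arrays of one group lie on the same side of both arrays of the other. This was a condition of their choice and is not a finding.

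Of the named genes, 63 had a probe detected on both SSCTR arrays and none on either WT array, and 347 the reverse. Of these, 20 and 22 passed the test. The second number goes with fewer probes detected on the SSCTR arrays in all, and that gap's part in it was not tested. The 6 brightest of each kind all passed. Besides Nat8, Olfml2b, Myom2 and Cst9, those higher were Serpina6, the corticosteroid carrier of plasma (at least 3.32-fold higher), and Arc, a synaptic immediate early gene (at least 3.1-fold higher). Besides Adh7, Mcpt4 and Ugt1a6a, those lower were Timp4, a metalloproteinase inhibitor (at least 2.89-fold lower), Itgb7, an integrin subunit of homing lymphocytes (at least 2.61-fold lower), and Fcmr, the IgM receptor of B cells (at least 2.59-fold lower). These 5 were stable.

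Among the brightest genes, changes were smaller. Timp1, a secreted inhibitor of metalloproteinases, measured 12.05 and 12.13 in WT and 13.01 and 12.96 in SSCTR, 1.86-fold higher, the lymphoid chemokine gene Ccl21a rose 1.77-fold, and Ivns1abp, which binds an influenza virus protein, 1.64-fold. Mrap, the accessory protein that brings the ACTH receptor to the surface, fell 1.89-fold (11.42 and 11.65 in WT and 10.57 and 10.66 in SSCTR), Smarca1, a chromatin remodelling ATPase, 2.09-fold, and Ldha, lactate dehydrogenase A, 1.65-fold. Each of these 6 calls ended with any of the 4 arrays left out, and those of Ccl21a, Ivns1abp and Ldha also with the replicate block. For H2-D1, a classical MHC class I gene with close paralogs, the probe used fell by 1.25 on the log2 scale, but other probes gave -1.82 and 0.39, and one detected on neither WT array a lower bound of 2.22; the gene's direction is therefore not settled.

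Gene lists were then described by their counts. Over all features tested 2.11% rose and 1.82% fell, the shares to set beside each list's counts. The lists with the highest median difference among those with at least 8 measured members were cholesterol synthesis, spermatogonia and immediate early genes. Those with the lowest were granulocyte and mast cell genes, serpins with other liver-type secreted proteins, and interferon response genes. The medians were 0.58, 0.52 and 0.47 against -1.33, -0.71 and -0.63, beside -0.0078 over all features. Over the processing alternatives they ranged from 0.41 to 0.74, 0.11 to 0.52 and 0.30 to 0.62, and from -1.47 to -0.17, -0.996 to -0.145 and -0.67 to -0.34. The end nearest 0 came without a detection filter for the spermatogonial, immediate early, mast cell and serpin lists, so the order of the lists depends on the processing.

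**Figure D3:**
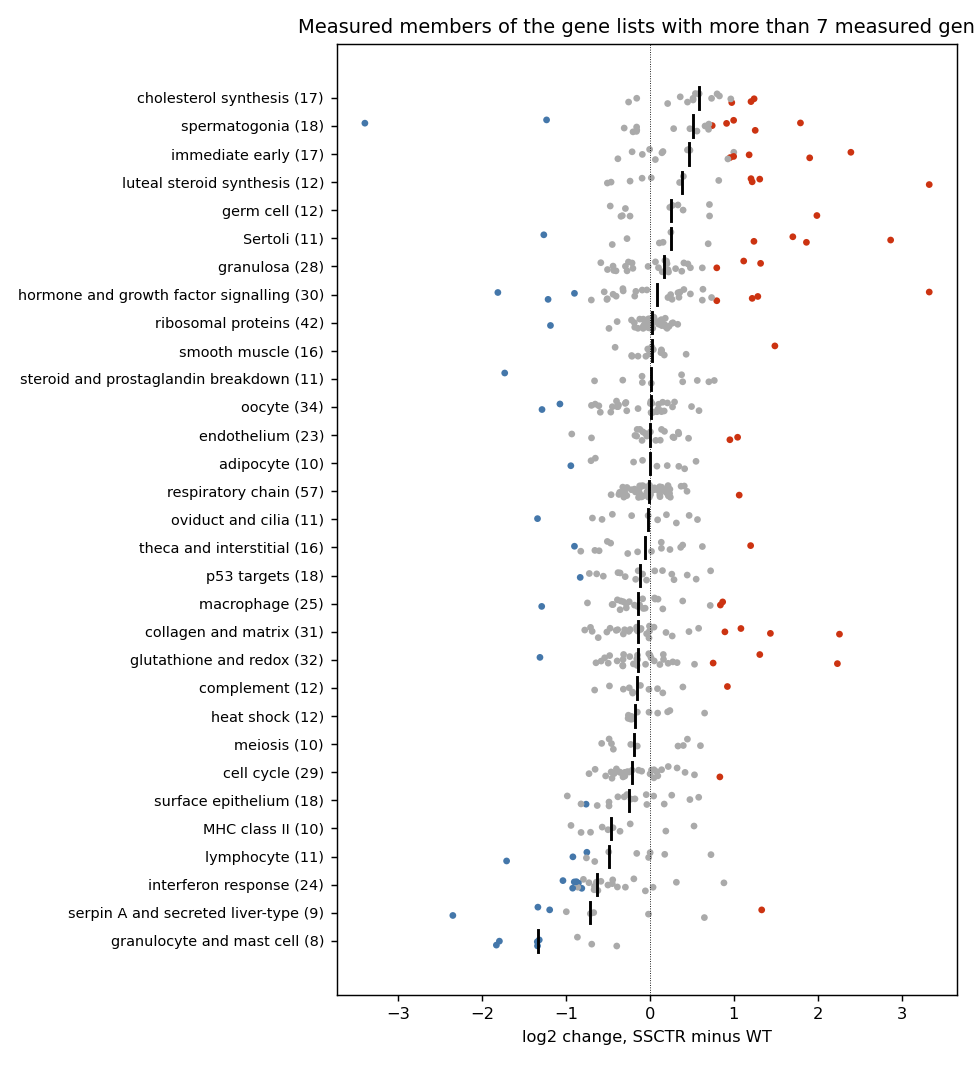
Difference in log2 units, SSCTR minus WT, of each measured gene in the gene lists with more than 7 measured genes, with the list's median; coloured points passed the test. The median was lowest in granulocyte and mast cell genes (-1.33); among the lists with at least 8 measured members it was highest in cholesterol synthesis (0.58).

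Promoters of 3 changed genes from the immediate early and cholesterol synthesis lists and 3 from the mast cell list are shown. They were picked from genes past the threshold, and most measured members of the first 2 lists did not pass. Each is the 250 bases before the start in the RefSeq annotation of GRCm38.p6, on the gene's strand, with motif letters in capitals. The motif was TGACG for Fos, CCAAT for Cyp51 and Hsd17b7, and GATAA for the mast cell genes, each searched on both strands.
Fos, chr12:85473640-85473889, plus strand: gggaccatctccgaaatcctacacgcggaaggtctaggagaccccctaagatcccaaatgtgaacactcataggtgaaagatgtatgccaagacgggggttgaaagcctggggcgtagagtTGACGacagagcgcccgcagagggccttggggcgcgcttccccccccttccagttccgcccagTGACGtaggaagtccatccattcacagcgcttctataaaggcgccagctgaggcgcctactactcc
Cyp51, chr5:4104698-4104947, minus strand: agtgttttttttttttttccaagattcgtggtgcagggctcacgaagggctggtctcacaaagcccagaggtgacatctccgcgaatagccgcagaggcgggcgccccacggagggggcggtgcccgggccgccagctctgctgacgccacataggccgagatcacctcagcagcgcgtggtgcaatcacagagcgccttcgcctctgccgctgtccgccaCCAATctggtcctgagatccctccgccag
Hsd17b7, chr1:169969206-169969455, minus strand: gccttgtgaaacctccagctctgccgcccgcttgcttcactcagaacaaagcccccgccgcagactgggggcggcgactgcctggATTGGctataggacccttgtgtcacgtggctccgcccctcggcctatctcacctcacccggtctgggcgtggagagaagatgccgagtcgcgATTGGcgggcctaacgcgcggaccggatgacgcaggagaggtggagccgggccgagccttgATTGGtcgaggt
Cma1, chr14:55944676-55944925, minus strand: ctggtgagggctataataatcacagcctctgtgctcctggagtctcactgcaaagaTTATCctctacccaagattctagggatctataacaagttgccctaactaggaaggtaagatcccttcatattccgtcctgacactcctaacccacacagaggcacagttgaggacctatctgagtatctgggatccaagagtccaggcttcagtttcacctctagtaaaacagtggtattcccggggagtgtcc
Mcpt4, chr14:56062311-56062560, minus strand: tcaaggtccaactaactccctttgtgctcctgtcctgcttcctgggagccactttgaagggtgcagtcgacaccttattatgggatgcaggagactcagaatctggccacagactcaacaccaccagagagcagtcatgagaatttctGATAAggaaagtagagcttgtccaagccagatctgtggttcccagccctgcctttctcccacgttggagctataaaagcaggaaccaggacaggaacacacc
Cpa3, chr3:20242182-20242431, minus strand: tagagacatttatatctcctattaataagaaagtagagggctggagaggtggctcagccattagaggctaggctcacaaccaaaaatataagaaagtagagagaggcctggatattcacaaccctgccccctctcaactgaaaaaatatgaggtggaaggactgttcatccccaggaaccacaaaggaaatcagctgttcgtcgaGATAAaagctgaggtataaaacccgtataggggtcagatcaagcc
TGACG, the core of the cyclic AMP response element, began at -129 and -66 in Fos. It also occurs in the Cyp51 and Hsd17b7 windows, where it was left unmarked because capitals show only the motif named for each gene. CCAAT, bound by NF-Y, began at -29 in Cyp51 and lay on the opposite strand in Hsd17b7, from -165, -73 and -12. GATAA, the core bound by GATA factors, began at -102 in Mcpt4 and -45 in Cpa3 and lay on the opposite strand from -194 in Cma1. Of 32851 promoter windows of the same length, 17.8% held TGACG, 33.8% CCAAT and 22.6% GATAA, so these letters are common. A match is a description of the sequence and not evidence of binding. The serum response element (CArG box, in 1.47% of windows) and the sterol element written as TCACNCCAC (1.05%) were also searched and had no match in these 6 windows. Sites further upstream and other spellings were not searched, so this does not show that the promoters lack these elements.

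Immediate early genes are transcribed within minutes of a stimulus and include zinc finger and AP-1 transcription factors. Fos, a subunit of AP-1, measured 5.42 and 5.09 in WT and 6.85 and 7.47 in SSCTR. Both SSCTR arrays were higher, 3.74-fold (1.90 ± 0.23, adjusted p = 0.00394). Egr3, a zinc finger factor, measured 5.28 and 4.71 in WT and 7.48 and 7.30 in SSCTR, 5.26-fold higher (2.39 ± 0.22, adjusted p = 0.00116), with detection on 1 of 2 WT arrays. Jun, the partner of Fos, measured 7.64 and 7.54 in WT and 8.84 and 8.71 in SSCTR, 2.27-fold higher (adjusted p = 0.0126). Egr2 (1.00 ± 0.17) and Egr1 (0.96 ± 0.17) also rose. Of 17 measured members 5 rose, 0 fell and 12 did not pass; Dusp1, a MAP kinase phosphatase (0.999), and Klf6 (0.93) were among the last, with adjusted p of 0.0531 and 0.0629. Fos and Egr3 were stable; Jun, Egr2 and Egr1 passed in none of the fits with an array left out. The labels do not record the handling time of the tissue, and its part in these values was not tested.

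Cholesterol synthesis supplies the substrate of ovarian steroids. Cyp51, which removes a methyl group from lanosterol, measured 9.60 and 9.39 in WT and 10.77 and 10.70 in SSCTR. Its SSCTR arrays were both higher, 2.36-fold (1.24 ± 0.17, adjusted p = 0.00677). Hsd17b7, which acts in the same pathway and also makes estradiol, measured 11.74 and 11.84 in WT and 12.79 and 13.19 in SSCTR, 2.3-fold higher (adjusted p = 0.0215; on a second probe, detected on neither WT array, the log2 difference was at least 1.53). Fdps, which makes farnesyl diphosphate, measured 12.85 and 12.96 in WT and 13.87 and 13.90 in SSCTR, 1.97-fold higher (adjusted p = 0.0145; second probe 0.32). Of 17 measured members 3 rose, 0 fell and 14 did not pass. Differences were positive in 15 of 17, among them Insig1 (0.96), Lss (0.83) and Sqle (0.73), which did not pass. None of the 3 calls was stable: Cyp51 was lost without WT replicate 3, Hsd17b7 passed in 1 of the 4 fits and Fdps in 0, and Fdps was also lost with the mean of its probes.

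In luteal and steroid synthesis genes 4 of 12 measured members rose and 0 fell, with a median of 0.38. Star, which moves cholesterol into mitochondria, measured 7.93 and 8.27 in WT and 9.52 and 9.30 in SSCTR. Both SSCTR arrays were above WT, 2.48-fold (1.31 ± 0.19, adjusted p = 0.00959). Ptgfr, the prostaglandin F receptor of luteal cells, measured 7.13 and 6.80 in WT and 8.34 and 8.03 in SSCTR, 2.33-fold higher (adjusted p = 0.0135). Rln1 and Hsd17b7 were the others. Of the enzymes next in line, neither passed: Cyp11a1 (-0.51 ± 0.17, adjusted p = 0.141), whose other probes gave 0.14 and 0.54, and Hsd3b1 (-0.24 ± 0.18, adjusted p = 0.532). Rln1 was stable; Star was lost without WT replicate 2 and without SSCTR replicate 2, and Ptgfr without WT replicate 3 and without SSCTR replicate 2. The labels give no estrous stage, and its part was not tested.

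Mast cells store proteases in granules. Cma1, a chymase, measured 6.67 and 6.61 in WT and 4.85 and 4.77 in SSCTR, 3.55-fold lower (-1.83 ± 0.18, adjusted p = 0.00146). A second probe, detected on neither SSCTR array, had a bound of -1.44 in log2 units. Mcpt4, another chymase, measured 6.15 and 6.21 in WT and 4.39 and 4.38 in SSCTR and was detected on neither SSCTR array, at least 2.51-fold lower (adjusted p = 0.000909). Cpa3, mast cell carboxypeptidase, measured 6.56 and 6.65 in WT and 5.44 and 5.08 in SSCTR, 2.53-fold lower (adjusted p = 0.0139). Of the SSCTR arrays, Cma1 was detected on 1 of 2, Mcpt4 on 0 and Cpa3 on both, and all 3 genes were lower there than on either WT array. Tpsb2, a tryptase, was 2.49-fold lower, with detection on 1 of 2 SSCTR arrays, and the neutrophil and epithelial gene Ltf 2.53-fold lower. Cma2, a chymase outside the list, was at least 3.35-fold lower.

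Of the 8 granulocyte and mast cell genes measured, 5 fell, 0 rose and 3 did not pass, and all 8 differences were negative. Of the 8, 3 were detected on all 4 arrays. Members such as Mcpt4 met the detection rule through the WT arrays alone, where they were high. The shared sign and the low median are therefore partly built in, and without a detection filter the list's median was -0.17. The list's mean level was 6.31 to 6.36 on the WT arrays and 5.04 to 5.24 on the SSCTR arrays, where 4.83 and 4.88 were the lowest detected values. Cma1 and Mcpt4 were stable, and Cpa3, Tpsb2 and Ltf each passed in 1 of the 4 fits with an array left out. Of the other probes of Cpa3, one was detected on neither SSCTR array, with a bound of -0.73, and one on 1 array of each group, with a difference of 0.30; Cpa3 was lost with the mean of its probes.

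Interferons induce antiviral and antigen-presenting genes. Ifi27l2a, an interferon-induced mitochondrial protein, measured 8.40 and 8.14 in WT and 7.12 and 7.34 in SSCTR, 2.05-fold lower (adjusted p = 0.0202). Tap1 (-0.92), which loads peptides for MHC class I, Psmb8 (-0.90), an immunoproteasome subunit, and the antiviral gene Ifit3 (-0.88) fell as well. The interferon-induced GTPases Irgm2 (-0.85) and Gbp2 (-0.81) completed the 6 of 24 measured members that fell. The other 18 did not pass and 0 rose; differences were negative in 21 of 24, and Bst2, which tethers budding virus, was the largest exception (0.88, adjusted p = 0.156). No call was stable, and a second probe of Psmb8 gave 0.01. Psmb8 and Gbp2 were also lost with the mean of their probes, and Tap1 without background correction. The mean level of the lymphocyte list was 6.22 to 6.46 on the WT arrays and 5.91 to 5.96 on the SSCTR arrays, and that of the macrophage list 7.25 to 7.32 and 7.17 to 7.19; the part of these cells in the interferon values was not tested.

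The serpin and liver-type list held 3 falls and 1 rise in 9 measured members. Beside Serpina3n, Hp, the hemoglobin scavenger haptoglobin, measured 7.69 and 7.73 in WT and 5.97 and 6.79 in SSCTR, 2.52-fold lower, with -0.54 on a second probe, and Saa3, serum amyloid A, measured 8.64 and 8.41 in WT and 7.34 and 7.33 in SSCTR, 2.29-fold lower. Serpina5, an inhibitor of coagulation proteases, rose 2.52-fold (8.30 and 8.40 in WT and 9.77 and 9.59 in SSCTR). Serpina6, given above as higher, is also a serpin A but was not in this list. Serpina3n was the list's sole stable call. With members undetected in a group at their bound, the median was -0.54 in place of -0.71.

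**Figure D4:**
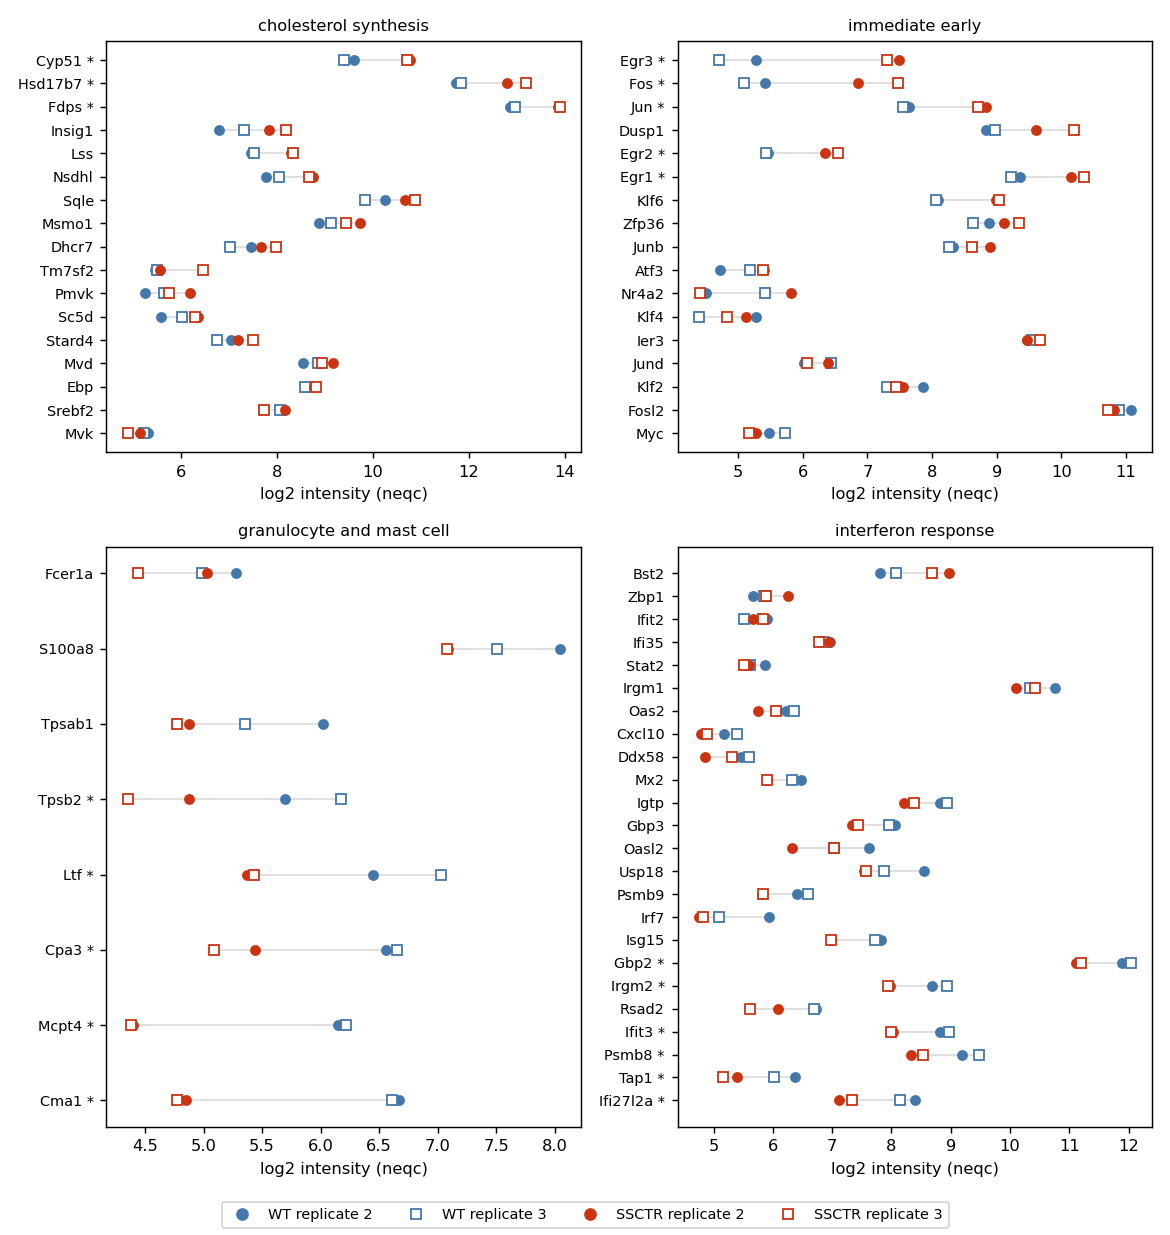
Log2 intensity (horizontal) of each measured member of the immediate early, cholesterol synthesis, mast cell and interferon lists on each of the 4 arrays, WT in blue and SSCTR in red; an asterisk marks genes past the test. SSCTR lay to the right of WT in 15 of 17 cholesterol genes by mean and to the left in 21 of 24 interferon genes.

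Of 11 measured lymphocyte genes, 5 of them detected on all 4 arrays, 3 fell and 0 rose. They were Cd79b, a subunit of the B cell receptor (-1.71 ± 0.32), Coro1a, an actin regulator of leukocytes (-0.92 ± 0.20), and Cd3g, of the T cell receptor complex (-0.75 ± 0.16). None was stable, all 3 were lost in a fit of the 4 arrays alone, and Cd3e, of the same complex as Cd3g, was at 0.00. Of 10 MHC class II genes 0 passed, with a median of -0.47 and differences negative in 8. Of 25 macrophage genes 2 rose, Gpnmb (0.87) and the chemokine gene Ccl6 (at least 1.47-fold, lost in 7 of 10 other alternatives), and Fcer1g, the signalling chain of Fc receptors, fell (-1.29). Of 12 complement genes C2 rose (0.92) and 0 fell. None of the macrophage and complement calls was stable.

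The transplanted cell type has its own markers, among them transcription factors and surface proteins. Of 18 measured spermatogonial genes 5 rose, 2 fell and 11 did not pass. Itga6, an integrin used to enrich these stem cells, measured 4.88 and 4.67 in WT and 6.52 and 6.62 in SSCTR. Detection was on 1 of 2 WT arrays and both SSCTR arrays, which were higher, 3.47-fold (1.79 ± 0.17, adjusted p = 0.00117). Neurog3, a transcription factor of spermatogonia and of endocrine progenitors, measured 5.76 and 5.80 in WT and 7.11 and 6.96 in SSCTR, 2.39-fold higher (1.25 ± 0.16, adjusted p = 0.00519). Egr2, which is also in the immediate early list, Taf7l, a germ cell transcription factor subunit (at least 1.54-fold), and Utf1, of undifferentiated spermatogonia (0.74), rose by less. Thy1, a surface protein of stem spermatogonia and of stroma and lymphocytes, fell (-1.23 ± 0.19), as did Sox3.

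Detection of the list's other genes was mixed. Itgb1, Lin28a, Bcl6b, Cdh1, Dnd1, Nanos2, Etv5 and Epcam were detected on all 4 arrays and did not pass the test. Gfra1 and Ret, the receptor of glial-derived growth factor on stem spermatogonia, and Id4, Lhx1 and Pax7 were detected on 0 of 4 arrays, and Zbtb16 on WT replicate 3 alone. The Y-linked genes Eif2s3y, Kdm5d, Uty, Zfy2, Usp9y and Sry were detected on 0 of 4 arrays and Zfy1 on WT replicate 3 alone, so none of the 7 listed with a probe met the detection rule. A probe not detected leaves only a bound and does not show that male cells were missing. Itga6, Neurog3 and Sox3 were stable. Taf7l was lost without background correction, and Utf1 with median scaling, the replicate block and the 4 arrays alone. Thy1 passed in 1 of the 4 fits with an array left out and Egr2, Taf7l and Utf1 in 0.

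Oocyte genes were nearly centred on 0, with a median of 0.01 that ranged from -0.15 to 0.04 over the alternatives. Of 34 measured members 2 fell, 0 rose and 32 did not pass. The groups did not overlap for 14 members that were lower in SSCTR and 5 that were higher, beside 26.1% and 23.2% of all features tested. The list's mean level was 8.24 on both WT arrays and 8.04 to 8.11 on the SSCTR arrays. Gdf9, the growth factor by which oocytes direct granulosa cells, measured 10.09 and 10.16 in WT and 8.89 and 8.78 in SSCTR. Both SSCTR arrays were lower, 2.44-fold (-1.29 ± 0.16, adjusted p = 0.00492). Oas1d, an oocyte member of the oligoadenylate synthetase family, measured 10.82 and 10.36 in WT and 9.42 and 9.61 in SSCTR, 2.1-fold lower (adjusted p = 0.0334). Bmp15, the partner of Gdf9 in signalling (-0.39 ± 0.16, adjusted p = 0.219), did not pass, nor did the egg coat genes Zp1 (-0.65, 0.101), Zp2 (-0.70, 0.0779) and Zp3 (-0.59, 0.127), given with their differences and adjusted p. Nobox, a transcription factor of early follicles, was at -0.45 (adjusted p = 0.2). Nlrp5 (0.27) and Ooep (0.13), of the subcortical maternal complex, and Figla (-0.28), an oocyte transcription factor, were nearer 0. Gdf9 was stable; Oas1d passed in none of the fits with an array left out and was lost in a fit of the 4 arrays alone.

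Of 12 germ cell genes Tex14 rose alone. Tex14, which keeps the bridges between germ cells open in mouse testis, measured 6.64 and 7.02 in WT and 8.92 and 8.72 in SSCTR, 3.97-fold higher (1.99 ± 0.19, adjusted p = 0.00128), and was stable. The germ cell RNA helicase Ddx4 (-0.47, adjusted p = 0.259), Dazl (-0.24, 0.505) and Kit (-0.35, 0.328) did not pass. A second probe of Dazl gave 0.61. Of 10 measured meiosis genes and 3 spermatid genes 0 passed; Sycp3, of the synaptonemal complex, was at -0.49 and Stra8, which starts meiosis, at -0.46.

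Granulosa genes held 3 rises and 0 falls in 28 measured members, with a median of 0.16. Kitl, the ligand by which granulosa cells signal to the oocyte's Kit receptor, measured 7.95 and 8.08 in WT and 9.59 and 9.07 in SSCTR, 2.49-fold higher (1.32 ± 0.22, adjusted p = 0.0168). Its other probes disagreed, at -0.61 and 2.53. Bmp3, of the TGF-beta family, measured 7.55 and 7.90 in WT and 8.82 and 8.86 in SSCTR, 2.17-fold higher, and Fst, the activin-binding follistatin, 10.34 and 10.49 in WT and 11.14 and 11.28 in SSCTR, 1.74-fold higher. Kitl passed in 1 of the 4 fits with an array left out and Bmp3 and Fst in 0, and the last 2 were lost with the replicate block. The remaining 25 did not pass, among them Foxl2 (0.38), Fshr (0.48), Inha (-0.27), Inhba (0.45), Esr2 (0.62, adjusted p = 0.0796) and Amhr2 (-0.58).

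**Figure D5:**
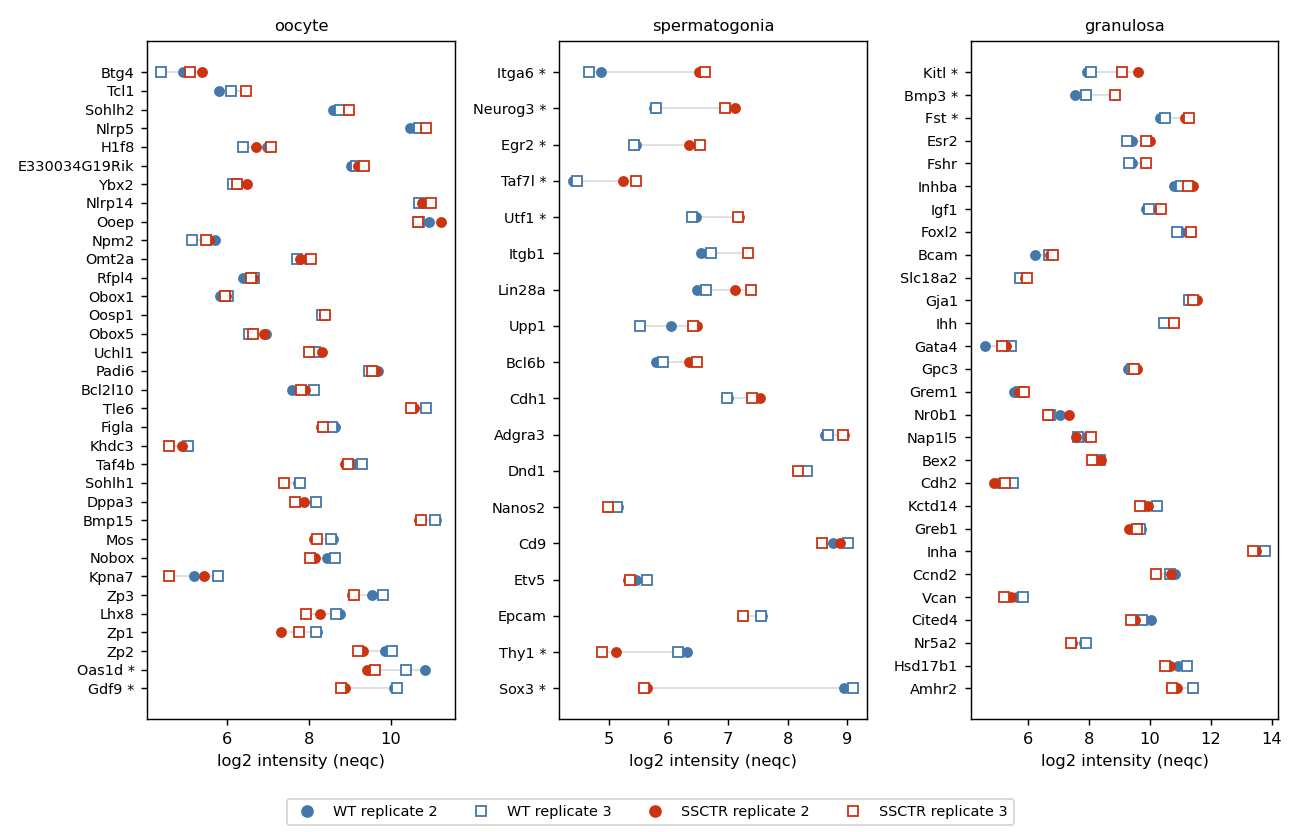
Log2 intensity (horizontal) of each measured oocyte, spermatogonial and granulosa gene on each of the 4 arrays, WT in blue and SSCTR in red, circles for replicate 2 and squares for replicate 3; an asterisk marks genes past the test. In the oocyte panel 2 of 34 genes are marked, both lower in SSCTR; Sox3 spans the widest gap of the spermatogonial panel.

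Sertoli cells are the testis counterpart of granulosa cells. Of 11 measured genes from lists of Sertoli cell genes 4 rose, 1 fell and 6 did not pass. Cst9, a cystatin first known from fetal testis, measured 4.63 and 4.30 in WT and 7.42 and 7.25 in SSCTR. It was detected on neither WT array and on both SSCTR arrays, at least 6.09-fold higher (adjusted p = 0.000301). Defb36, a beta-defensin, measured 4.96 and 4.90 in WT and 6.75 and 6.84 in SSCTR, 3.64-fold higher (adjusted p = 0.000909). Cst12, another cystatin, was 3.26-fold higher and Aard 2.36-fold. Trf, the iron carrier transferrin, was 2.4-fold lower (9.27 and 9.33 in WT and 7.99 and 8.08 in SSCTR). The testis-determining pathway gene Sox9 (0.69 ± 0.18, adjusted p = 0.0759) and Dhh, the hedgehog ligand of Sertoli cells (0.16, adjusted p = 0.669), did not pass. Cst9 and Defb36 were stable; Cst12 was lost without WT replicate 2 and without SSCTR replicate 3, and Aard and Trf passed in 1 of the 4 fits.

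Signalling genes moved both ways, 4 higher and 3 lower in 30 measured members. These counts include Rln1 and Igfbp2, given above. Vegfa, the main vascular growth factor, measured 8.42 and 8.44 in WT and 9.73 and 9.70 in SSCTR, 2.44-fold higher (1.29 ± 0.16, adjusted p = 0.00447), and was stable. Its second probe gave 0.59. Tgfbr2, a TGF-beta receptor, measured 8.30 and 8.25 in WT and 7.17 and 6.95 in SSCTR, 2.32-fold lower, and was lost without WT replicate 2 and without SSCTR replicate 3. Bmp4, a theca growth factor, was 1.86-fold lower and passed in 0 of these fits. Of 23 endothelial genes 2 rose, Nos3, endothelial nitric oxide synthase (1.04), and Tek, the angiopoietin receptor (0.95); of 16 smooth muscle genes Rgs5, of pericytes, rose (1.49 ± 0.25). None of these 3 calls was stable.

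Matrix genes held 4 rises and 0 falls in 31 measured members, although their median was -0.15. Ccn2, a matricellular protein induced by TGF-beta, measured 10.71 and 10.42 in WT and 12.07 and 11.93 in SSCTR, 2.7-fold higher (1.44 ± 0.18, adjusted p = 0.00489). Mmp11, a stromal metalloproteinase, was 2.12-fold higher. The collagen gene Col1a1 did not pass (-0.78 ± 0.33, adjusted p = 0.238). Tnc and Ccn2 were stable, Timp1 passed in 0 of the fits with an array left out and Mmp11 in 1.

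In glutathione and redox genes 3 of 32 rose and 1 fell. Beside Srxn1, Gstm6, a glutathione transferase with close paralogs (1.31 ± 0.21), and Mgst3 (0.75 ± 0.16) rose. Cat, the peroxisomal catalase, measured 7.16 and 6.76 in WT and 5.62 and 5.68 in SSCTR, 2.48-fold lower (adjusted p = 0.00865); without WT replicate 2, and without SSCTR replicate 2, it did not pass. Srxn1 was the sole stable call of the list.

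The remaining lists had at most 1 call in either direction. Cyp2e1 rose in the theca and interstitial list (1.20) and Bmp4 fell. Plin4, of lipid droplets, fell among 10 adipocyte genes (-0.94), Krt19, a keratin of simple epithelia, among 18 surface epithelium genes (-0.76), and Ltf among 11 oviduct genes. Of 29 cell cycle genes Bub1b alone rose (0.83, second probe -0.10), with a list median of -0.21. Of 18 p53 targets Cdkn1a alone fell (-0.83), while its other probes gave 1.50 and 0.57, so its direction is not settled. None of these calls was stable.

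Housekeeping lists stood near 0. Of 42 ribosomal protein genes Rps6, which has many pseudogenes, alone fell (-1.18), with a median of 0.028, and did not pass without WT replicate 2 or without SSCTR replicate 2. Of 57 respiratory chain genes Ndufb10 alone rose (1.06); it failed in 7 of 11 alternatives, and its difference turned to -0.20 where another probe stood for the gene. Among single reference and structural genes that did not pass, Gapdh was at -0.37, Actb at 0.46, Col3a1 at -0.32, Pecam1 at 0.34, Acta2 at 0.13, Hspa1a at -0.22, Cdk1 at -0.14, Cyp17a1 at -0.26 and Akr1c18 at 0.02. A second probe of Pecam1 gave -0.25. Of 12 heat shock genes and 5 erythroid genes 0 passed.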

How the data were processed

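Total RNA of C57BL/6 ovaries was extracted with Trizol and column-cleaned with DNase, and biotinylated cRNA was hybridized to Illumina arrays, per the labels' protocols. GenomeStudio is named in the submitters' processing notes without a version, and neither the chip nor the slide is recorded there, so a slide effect cannot be told apart from the groups. The authors deposited 2 tables. The first gives intensities and detection p-values per the file headers, and from its values the intensities of the 6 arrays used lie within 0.541% of each other when sorted, that is, they were already brought to 1 distribution. The deposited p-value per probe is taken here as its rank among negative controls, which the headers do not state. The second deposited table, of normalized intensities, served as an alternative. Replicate 1 of each group is the mean of replicates 2 and 3 times one of few factors (6 in WT, 17 in SSCTR), so n = 2 in each group.

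Background correction and quantile normalization of the 6 arrays used the neqc function (limma 3.58.1, R 4.3.3) with an offset of 16, followed by log2. The detected probe with the highest mean over the 6 arrays stood for a gene. Symbols were updated through Entrez identifiers for 34807 of 34885 probes of 1 symbol in RefSeq of GRCm38.p6. The 6 arrays of WT, SSCTR and POF were fitted together with lmFit and eBayes (3 residual and 5.4 prior degrees of freedom), with Benjamini-Hochberg adjustment over 12663 features. An exact permutation test of 2 against 2 arrays cannot go below a two-sided p of 0.333 and was not used. The steps were run on simulated data, with changes planted only in probes clearly detected on all 4 SSCTR and WT arrays. That run does not cover dim genes or genes detected in 1 group alone. The number of arrays limits the precision, and the median standard error was 0.192 in log2 units.

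Members, gene lists and rules were chosen with earlier results of these data known. Named genes are the 15 largest rises and falls and up to 4 members of each list past the threshold in each direction. To these were added the 6 brightest genes detected in 1 group alone and the 5 brightest changed genes, each in both directions, and a set of tissue markers. The 15 were taken among changed genes whose groups did not overlap and whose probe was detected on both arrays of the higher group. Tpsb2, Irgm2, Utf1 and Egr1, and list members given as not passing beyond these markers, were chosen after their values were seen. Same-numbered arrays of WT and SSCTR did not deviate together (correlation -0.02), so the replicate number was not a block. Alternatives were other background, normalization, filter, probe, prior and sample choices, a replicate block and each array left out.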

Additional observations from a re-analysis of the deposited data

How the results depend on the processing

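The count of 377 named genes (210 higher, 167 lower) rose to 710 (385 and 325) without background correction, 638 (343 and 295) with an offset of 50, 707 (382 and 325) on the authors' normalized values and 685 (368 and 317) with a trend in the prior; the cause was not tested. With all 9 columns it was 2541 (1199 and 1342), where replicate 1 adds no independent array. Without a detection filter it was 255 (139 and 116). With an array left out it ranged from 106 to 124, with 63 to 72 higher and 43 to 57 lower, in fits of fewer arrays. With the replicate block it was 279 (155 and 124), of which 266 were among the 377; since the arrays share only a number, a call lost there does not show a weaker effect. Median scaling, the stricter detection filter, the 4 arrays alone and the mean of probes gave 265 to 420. Of all 377 genes, 375 kept their sign with the 4 arrays alone and 374 with the mean of probes. With the stricter filter 277 of the 279 tested did. The genes picked by the naming rules above included 100 past the threshold. Among these 100, directions reversed for Cdkn1a with the mean of all detected probes (0.416). They also reversed for Ndufb10 with the stricter filter (-0.2019) and the 4 arrays alone (-0.2028). Over the other alternatives, these 100 genes kept their call in 983 fits, lost it in the same direction in 85 and reversed in the 3 given. Leaving out an array, they kept it in 206 fits and lost it in 194. Of the 377 genes, 41 passed under all 15 alternatives. Genes that the stricter filter left untested could not enter that count. Among them, Rln1, Mcpt4 and Itga6 kept their call in 10 of 10 other alternatives. Signals near the lowest detected values of 4.72 to 4.88 limit what can be measured for dim genes. Among the genes named as changed, the calls lost without a detection filter were those of Bmp3, Ccl6, Cd79b, Coro1a, Cst12, Cyp2e1, H2-D1, Hp, Hsd17b7, Kitl, Krt19, Ldha, Ltf, Ndufb10, Oas1d, Plin4, Psmb8, Rgs5, Saa3, Tap1, Tek, Tpsb2 and Utf1. A fit of the 4 arrays alone lost Bub1b, C2, Ccl21a, Ccl6, Cd3g, Cd79b, Cdkn1a, Coro1a, Cyp2e1, Fst, Gbp2, Hp, Irgm2, Ivns1abp, Krt19, Ldha, Mgst3, Ndufb10, Oas1d, Psmb8, Tap1, Tek, Tpsb2 and Utf1. The replicate block lost Bmp3, Bmp4, Bub1b, Ccl21a, Ccl6, Cd3g, Cdkn1a, Cyp2e1, Fst, Gbp2, Gpnmb, Irgm2, Ivns1abp, Krt19, Ldha, Mgst3, Ndufb10, Oas1d, Psmb8, Tap1 and Utf1, and the mean of probes lost Bub1b, Cdkn1a, Cpa3, Fdps, Gbp2, H2-D1, Ivns1abp, Mgst3, Ndufb10 and Psmb8.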
